A study of Mus musculus with 18 samples.

Results

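Cluster 5 comprised 279 of the 3993 cells of the mouse gastric corpus that the authors kept in dataset 2, and of 4484 kept cells in the whole series. Its cells were those with the number 5 in the cell annotation deposited by the authors, who named it, with clusters 3, 6, 9 and 11, an isthmus progenitor cluster. Every one of the 279 cells was called G2M in that annotation. Quartz-Seq2, the assay, sorts 1 cell into each well of a 384-well plate and counts polyadenylated RNA molecules by unique molecular identifiers (UMIs). The animals were wild-type male C57BL/6J mice, 10 weeks old. In dataset 2, corpus gastric units of 3 mice were pooled by each of the operators K and T, singlets positive for Hoechst33342 and negative for the dead-cell dye ToPro3 were sorted, and each pool filled 6 plates. Pool and operator cannot be told apart, and the mice within a pool are not separated. Dataset 1 held cells of corpus and antrum from 2 other pools of 3 such mice, labelled as tubes 1 and 2, with dead cells removed but debris not gated out.

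The isthmus is the zone of the gastric unit in which progenitors divide and from which pit cells move towards the lumen and neck and parietal cells towards the base. Before a cell divides it copies its DNA in S phase, and in G2 it accumulates the cyclins, kinases and spindle proteins that condense, align and separate the chromosomes in M phase. Many of these genes are switched on late in the cycle by the DREAM and MuvB complexes, B-MYB and FOXM1, which act through a promoter element called the cell cycle genes homology region (CHR), often beside CCAAT boxes bound by NF-Y. At the end of mitosis the anaphase-promoting complex, a ubiquitin ligase, destroys many of the proteins.

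The plates of dataset 2 held 10540256 to 12850942 UMIs each, and cluster 5 had cells on all 12 plates, from 11 to 36 per plate. It held 121 cells of pool K, the other cells being of pool T. All plates use the same 384 well barcodes, so the 279 cells carried 210 distinct barcodes, of which 60 came from several plates and stand for separate wells. Levels below are UMIs summed over the cells of a cluster in a pool and given as CPM, UMIs per 1000000 UMIs of the sum, after TMM scaling. The clusters were made from these same counts. A difference between clusters is therefore given as a description, with no p, and a gene is called higher or lower where the difference was at least 2-fold in the same direction in both pools. Folds are on the log2(CPM) scale with a prior count of 2.

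The markers named for the cluster were present. *Mki67* (ENSMUSG00000031004, GRCm39 chromosome 7, 135291513 to 135318299, minus strand) encodes the proliferation antigen that coats mitotic chromosomes, and it stood at 514 CPM in pool K and 501 in pool T. *Foxm1* (ENSMUSG00000001517, chromosome 6, 128339518 to 128353147, plus strand), the transcription factor of the G2/M programme, stood at 75.2 and 87.1 CPM. *Iqgap3* (ENSMUSG00000028068, chromosome 3, 87989278 to 88028356, plus strand), a scaffold protein known as an isthmus stem cell marker, stood at 156 and 161 CPM. With every cell thinned to 10000 UMIs, 98.6% of cluster 5 cells kept a UMI of *Mki67* (exact 95% interval 96.4 to 99.6%, counting error only), against 2.71% of the parietal cells of clusters 1 and 8, which do not divide. For *Iqgap3* the thinned shares were 74.2% (68.6 to 79.2%) and 1.43%, and for *Foxm1* 50.9% (44.9 to 56.9%) and 0.571%. Unthinned, 100% of cluster 5 cells had a UMI of *Mki67*, 97.8% of *Iqgap3* and 95.3% of *Foxm1*. The median totals were 50083 UMIs per cell in cluster 5 and 47647 in the parietal cells, of which 1 cell was too shallow to thin. None of the 3 genes marked cluster 5 alone. In cluster 6 the thinned shares were 96.3% (93.3 to 98.2%) for *Mki67*, 72.9% (67.1 to 78.1%) for *Iqgap3* and 61.0% (54.9 to 66.8%) for *Foxm1*, and in cluster 9 they were 82.1%, 36.2% and 22.5%. *Foxm1* stood at 90.5 and 90.8 CPM in cluster 6.

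The promoters of 6 genes are shown because the results below turn on these genes and because promoters of the mitotic genes shared letters that the clustering did not use. Each line gives the 120 bases before the most upstream annotated start, 5′ to 3′ on the gene's strand, from the RefSeq annotation of GRCm38.p6. Capitals mark the CHR letters TTTGAA or TTCGAA and the letters CCAAT on either strand, so that TTCAAA and ATTGG are the same letters read from the other strand. The coordinates are chr11:99024190-99024309 (minus strand) for *Top2a*, chr17:24251410-24251529 (minus) for *Ccnf*, chr9:70421555-70421674 (minus) for *Ccnb2*, chr4:118437344-118437463 (minus) for *Cdc20*, chr7:135716380-135716499 (minus) for *Mki67* and chr3:88081931-88082050 (plus) for *Iqgap3*.
Top2a: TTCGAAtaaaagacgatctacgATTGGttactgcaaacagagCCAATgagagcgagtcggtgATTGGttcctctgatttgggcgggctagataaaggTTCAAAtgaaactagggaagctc
Ccnf: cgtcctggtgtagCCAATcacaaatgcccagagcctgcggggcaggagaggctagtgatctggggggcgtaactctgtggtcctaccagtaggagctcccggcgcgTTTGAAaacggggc
Ccnb2: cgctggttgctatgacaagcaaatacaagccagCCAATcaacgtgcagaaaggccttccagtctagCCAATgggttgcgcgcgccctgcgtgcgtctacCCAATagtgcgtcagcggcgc
Cdc20: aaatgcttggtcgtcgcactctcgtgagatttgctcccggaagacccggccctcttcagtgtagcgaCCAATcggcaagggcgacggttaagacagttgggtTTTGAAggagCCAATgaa
Mki67: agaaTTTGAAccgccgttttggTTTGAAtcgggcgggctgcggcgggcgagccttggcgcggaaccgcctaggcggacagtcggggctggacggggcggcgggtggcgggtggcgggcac
Iqgap3: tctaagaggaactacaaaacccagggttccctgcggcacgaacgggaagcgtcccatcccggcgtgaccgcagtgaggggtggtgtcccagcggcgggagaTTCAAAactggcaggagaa

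In this window *Top2a* had 2 CHR matches and 3 CCAAT matches, *Cdc20* 1 and 2, *Ccnf* 1 and 1, *Mki67* 2 and 0, and *Iqgap3* 1 and 0. *Ccnb2* had 3 CCAAT matches and no CHR match in these letters. The longer promoters of 300 bases, counted next, did hold a CHR match for *Ccnb2* and a CCAAT match for *Mki67*. Promoters of 300 bases (250 before and 50 after the start, 1 per gene) were at hand for 101 of the 123 tested genes of 7 mitotic lists, described below, and 62 of them (61.4%) held a CHR match, against 13.8% of the 9249 promoters of all tested genes and 19.5% of all 27025 promoters. CCAAT stood in 68.3% of the mitotic promoters, against 39.7% of those of tested genes and 38.0% of all, and both motifs together in 48.5%, against 5.95% and 7.73%. Among the lists, CHR matches were most frequent for cytokinesis genes, with 9 of 10, while 4 of 15 promoters of the anaphase-promoting complex and 7 of 33 of the DNA replication genes held one. These matches describe letters in the reference sequence and not binding.

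Cells of cluster 5 held the most UMIs among the 5 isthmus clusters. Its median cell had 50083 UMIs, followed by 45217 in cluster 6, 33317 in cluster 3, 31356 in cluster 9 and 31337 in cluster 11. Within plates the median UMIs of cluster 5 averaged 49759 ± 4164 (SD, n = 12 plates) against 30783 ± 3201 in cluster 9, and cluster 5 was higher on 12 of 12 plates. Detected genes averaged 7852 ± 146 against 6316 ± 283, again higher on 12 of 12 plates, and the percent of UMIs on mitochondrial genes averaged 3.95 ± 0.238 against 4.29 ± 0.182, lower on 12 of 12. An exact two-sided sign-flip permutation test gave p = 0.000488 for each of the 3 differences, the smallest that 4096 sign flips can give, and 0.00114 after Benjamini-Hochberg adjustment over 7 plate tests. With plate means in place of medians, the mitochondrial percent was higher in cluster 5 on 2 of 12 plates. It was still lower on average (adjusted p = 0.00798, same sign-flip test). The clusters were drawn from these cells' own counts, so these p-values speak to the repeatability over technical plates and not to mice.

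The phase scores that the authors computed placed cluster 5 at the top of G2/M. Its median G2M score was 0.818 (from 0.288 to 1.17), followed by 0.544 in cluster 6, 0.236 in cluster 9 (from -0.113 to 0.694), -0.079 in cluster 3 and -0.152 in cluster 11. In cluster 9, 196 of 218 cells were also called G2M, 19 were called G1 and 3 S, and the scores of the clusters overlapped. Of the cluster 9 cells, 89 (40.8%) scored above the lowest cell of cluster 5, and 60 cells of cluster 5 (21.5%) scored below the highest of cluster 9. The S score was above 0 in 144 of 279 cluster 5 cells and in 17 of 218 cluster 9 cells.

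**Figure D1:**
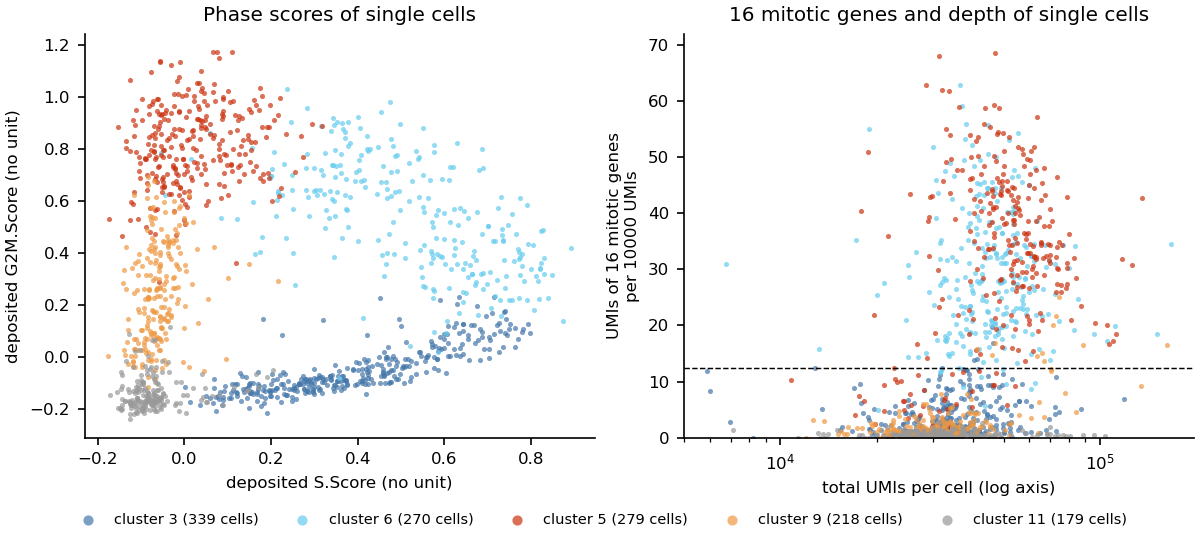
Left, the deposited S score against the deposited G2M score for each cell of the isthmus clusters 3, 6, 5, 9 and 11; right, total UMIs per cell (log axis) against the summed UMIs of 16 mitotic genes per 10000 UMIs. The dashed line is the 95th percentile of cluster 9 (12.4 per 10000), and 38 cells of cluster 5 lie under it, most of them at lower totals than the rest of the cluster.

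The genes of mitosis were higher in cluster 5 than in any of the other isthmus clusters when summed over 7 lists, of mitotic kinases and cyclins, chromosome structure, kinetochore and checkpoint, chromosomal passengers, spindle, cytokinesis and the anaphase-promoting complex. In the median cell of cluster 5 they took 255 (pool K) and 261 (pool T) of every 10000 UMIs. Cluster 6 followed at 187 and 196, cluster 9 at 85.3 and 90.2, cluster 3 at 46.2 and 48.1, and cluster 11 at 26.0 and 30.1. The 5th percentile of cluster 5 cells, 165.9 and 168.1, stood at or above the 95th percentile of cluster 9, 160.7 and 168.1.

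Against cluster 9, 344 of 12216 tested genes were higher in cluster 5 (2.82%) and 61 lower (0.499%), and the median log2 difference over all tested genes was 0.01. Among the mitotic kinases and cyclins 14 of 19 were higher and none lower, with a median log2 difference of 1.49. *Ccnf*, cyclin F, which directs a ubiquitin ligase in G2, stood at 99.8 and 97.8 CPM in pools K and T of cluster 5 against 8.38 and 7.57 in cluster 9, a log2 difference of 3.57. *Cdk1*, the kinase that drives entry into mitosis, stood at 551 and 593 against 103 and 78.7 CPM, and *Plk1*, which acts on centrosomes and kinetochores, at 296 and 315 against 69.0 and 80.6. *Aurka*, the centrosomal Aurora kinase, stood at 199 and 213 against 37.1 and 27.7 CPM.

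The cyclins that activate CDK1 did not follow one pattern. *Ccnb1* stood at 362 and 353 CPM in cluster 5 and at 135 and 119 in cluster 9, a log2 difference of 1.49. *Ccnb2* stood at 429 and 437 CPM against 386 and 390, a log2 difference of 0.16, and was not called. *Cdc25c*, a phosphatase that activates CDK1, stood at 63.3 and 71.9 against 35.8 and 42.3 CPM and was not called, while its relative *Cdc25b*, at 160.8 and 157.9 against 40.3 and 33.3 CPM, was higher.

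Genes that shape and hold the chromosomes varied in how far they separated the clusters. Of the chromosome structure list 11 of 18 were higher and none lower (median log2 difference 1.17), and of the chromosomal passengers and cohesin protectors 6 of 9 (2.14). *Top2a*, the topoisomerase that untangles sister chromatids, stood at 659 and 665 CPM in cluster 5 against 61.2 and 52.7 in cluster 9 (log2 difference 3.53). *Aurkb*, the kinase of the passenger complex, stood at 198 and 233 against 26.4 and 19.6 CPM (3.22), and its partner *Incenp* at 176 and 182 against 22.2 and 22.5 CPM (2.98). *Cdca2*, which brings a phosphatase to the chromosomes at anaphase, showed the largest difference among genes with 10 or more UMIs per pool, at 89.5 and 83.9 against 7.41 and 4.73 CPM (3.79).

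The spindle and cytokinesis genes were almost uniformly higher. All 13 cytokinesis genes tested were higher (median log2 difference 1.72), as were 22 of 25 spindle motors and microtubule proteins (1.54) and 17 of 23 kinetochore and checkpoint genes (1.57). *Prc1*, which bundles the microtubules of the central spindle, stood at 320 and 327 CPM against 37.7 and 26.0. *Kif18b* and *Nusap1*, a kinesin and a spindle assembly protein, had log2 differences of 3.26 and 3.21. The kinetochore gene *Cenpa*, the histone H3 variant of centromeres, was not called, at 583 and 579 CPM against 421 and 401. *Depdc1b*, the centromere gene *Cenpl*, the DNA glycosylase gene *Neil3* and the MYC network repressor gene *Mxd3* were also among the 12 largest differences, at 3.09 to 3.59 on the log2 scale.

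Subunits of the anaphase-promoting complex itself did not separate the clusters, with 3 of 16 members of its list higher. Those 3 were *Ube2c*, its ubiquitin-conjugating enzyme, its inhibitor *Fbxo5* and its late activator *Fzr1*. *Ube2c* stood at 1352 and 1375 CPM in cluster 5 against 346 and 319 in cluster 9, *Fbxo5* at 53.0 and 57.0 against 7.74 and 5.67, and *Fzr1* at 143 and 152 against 57.4 and 57.0. *Cdc20*, the activator at anaphase, stood at 445 and 475 against 225 and 230 CPM and missed the 2-fold mark in pool K. Of a list of cell cycle transcription factors, which holds G1/S as well as G2/M factors, 5 of 16 were higher, among them *Foxm1* at 75.2 and 87.1 against 19.3 and 23.6 CPM, and of the centriole duplication genes 3 of 8.

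Genes of the earlier cycle were also more abundant than in cluster 9. Of 41 DNA replication genes 14 were higher and none lower, and *Rrm2*, a subunit of ribonucleotide reductase, stood at 76.8 and 76.8 CPM against 19.3 and 31.4. The CDK4 inhibitor genes *Cdkn2c* (119 and 127 against 19.3 and 17.5 CPM) and *Cdkn2d* (85.3 and 85.5 against 16.4 and 20.3 CPM) were higher as well, and with *Rbl1* were the 3 of 22 genes called higher in the list of G1 cyclins and CDK inhibitors, where 1 was lower. No member of the lists for ribosome biogenesis (17 tested), pit cells (12), neck cells (8), chief cells (5) or immediate early and heat shock genes (14) was called in either direction.

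**Figure D2:**
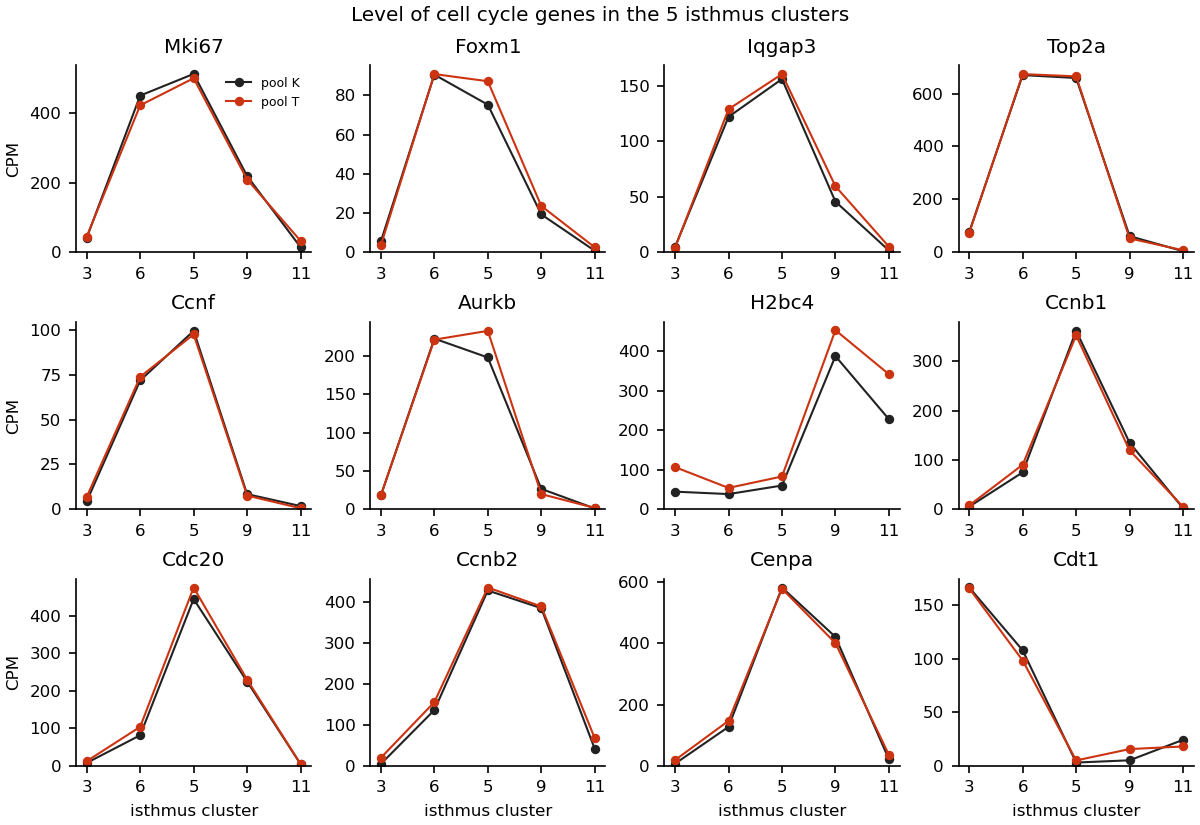
Level in CPM of 12 genes in the isthmus clusters 3, 6, 5, 9 and 11, with 1 point per pool (K and T). *Top2a* and *Aurkb* stand as high in cluster 6 as in cluster 5 and lie near the level of cluster 3 in cluster 9, while *Ccnb2* stands at 386 and 390 CPM in cluster 9, close to the 429 and 437 of cluster 5, and *H2bc4* is highest in cluster 9.

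The mitotic genes therefore differed in how much of their cluster 5 level was found in cluster 9. Over the 108 mitotic list genes higher in cluster 5 than in cluster 11, the CPM in cluster 9 ranged from 8.07% (*Ccnf*) to 89.7% (*Ccnb2*) of that in cluster 5, with a median of 32.4%. In both pools 16 genes stood under 20%, 15 above 50% and 77 fell between or differed between pools. Besides *Ccnf*, *Top2a*, *Prc1*, *Kif18b*, *Nusap1*, *Aurkb*, *Incenp*, *Cdk1* and *Aurka*, the first group held *Fbxo5*, *Pif1*, *Sgo2a*, *Ncaph*, *Kif11*, *Spc25* and *Cdca5*. The second held *Cdca8*, *Tubb4b*, *Cks1b*, *Tmpo*, *Cdc25c*, *Cenpm*, *Cdc23*, *Mis12*, *Mad2l1*, *Stmn1*, *Cenpa*, *Lbr*, *Hmgb3*, *H2az1* and *Ccnb2*. CHR letters stood in 10 of the 13 promoters at hand for the first group and in 8 of the 12 of the second.

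**Figure D3:**
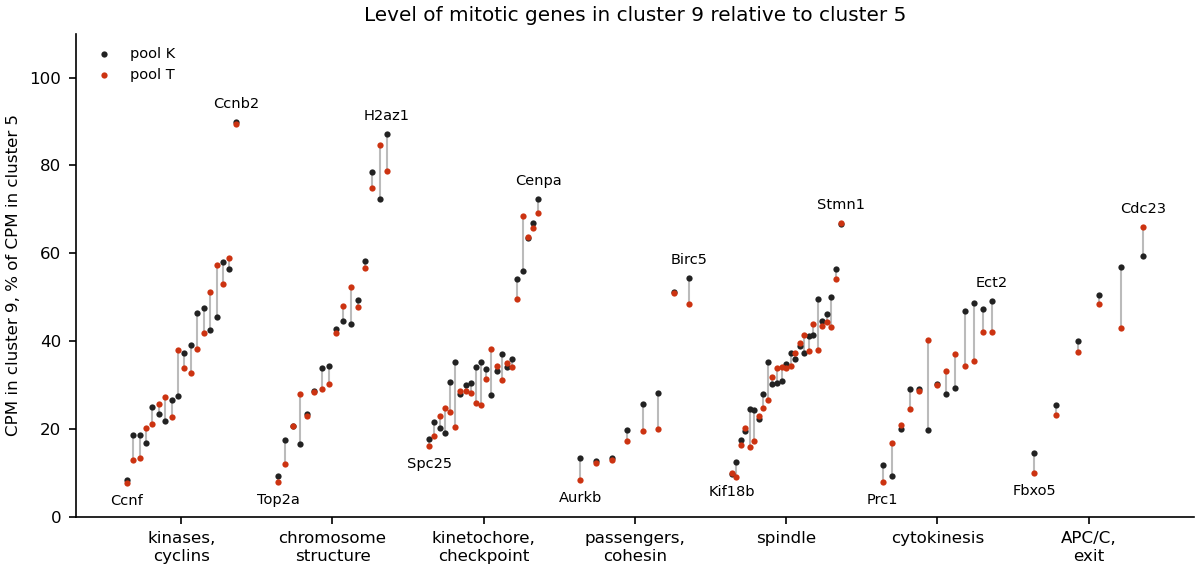
CPM in cluster 9 as a percent of CPM in cluster 5 for the 108 mitotic list genes, by list and pool. Values run from 8.07% to 89.7% as means over the pools, and the cytokinesis genes span a narrower range, from 9.86% to 45.6%.

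Cluster 5 was not uniform in these genes. The 16 genes kept under 20% summed to a median of 34.3 per 10000 UMIs in the cells of cluster 5, with a 5th percentile of 5.92, and to 1.54 in those of cluster 9. In 38 cells of cluster 5 (13.6%), 17 of pool K and 21 of pool T on 11 of the 12 plates, the sum lay under 12.4 per 10000, the 95th percentile of cluster 9. The sum is a range and not a type, and 28 cells lay within 1.5-fold of that cutoff, 15 of them under it.

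These 38 cells also had fewer UMIs than the rest of the cluster. The total is the denominator of the sum that set the cutoff, so the 2 are not independent. Their median total was 25440 in pool K and 30135 in pool T, against 53585 and 52994 in the other cells of the cluster and 30375 and 31883 in cluster 9. They detected a median of 6181 and 6567 genes, against 7973 and 7889 in the others. Their median G2M score, 0.637 in K and 0.636 in T, lay below the 0.837 and 0.859 of the others and above the 0.236 and 0.235 of cluster 9. Of the 16 genes that chose these cells 6 are in the G2M phase list, so a lower score is in part fixed by the choice.

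As shares of total UMIs, mitotic genes outside the 16 went both ways in the 38 cells. Over both pools these cells had a median total of 27724 UMIs, against 53230 in the other cluster 5 cells. A higher share therefore need not mean more UMIs of a gene per cell. *Ccnb2* stood at 744 and 596 per 1000000 UMIs in pools K and T, against 409 and 423 in the other cluster 5 cells, and *Cenpa* at 713 and 692 against 581 and 569. *Cdc20* stood at 678 and 590 per 1000000 against 432 and 465. *Ube2c* was lower, at 365 and 397 against 1459 and 1460, and *Mki67* stood at 445 and 358 against 528 and 514. Over both pools *Ccnb1* stood at 214 against 371 per 1000000, *Plk1* at 181 against 320, *Foxm1* at 41.8 against 86.0 and *Iqgap3* at 81.9 against 166.4. *H2bc4*, a replication-dependent histone gene that is also read from a polyadenylated form, stood at 199 and 311 per 1000000 in the 38 cells, 48.7 and 62.6 in the other cells of cluster 5 and 377 and 439 in cluster 9. These genes belong to the counts that made the clusters and the 38 cells were picked by values, so the differences are given without a test.

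The 61 genes lower in cluster 5 than in cluster 9 were of another kind. Of these, 34 (55.7%) were annotated as long non-coding RNAs, against 4.01% of the 12216 genes tested and 2.33% of the 344 genes that were higher. Their counts were low, with a median of 16 UMIs over all cells of cluster 5, and 29 of the 34 bore only a clone or model name. Examples are *Gm2011*, at 0.964 and 0.735 CPM against 3.87 and 5.67, and *Dancr*, which hosts a small nucleolar RNA, at 7.23 and 7.84 against 25.1 and 22.5. With every cell thinned to 10000 UMIs, 24 genes were lower, 7 of them non-coding, and only 11 of the 61 remained. Against clusters 3, 6 and 11, 5.6%, 2.37% and 6.83% of the genes lower in cluster 5 were of this class, which is 21, 8 and 17 genes. Over all 490 genes of this class the median log2 difference was -0.17 against cluster 9. It was -0.19, 0.07 and -0.22 against clusters 3, 6 and 11, so the downward shift was not particular to cluster 9.

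Histone genes made up another 6 of the 61. Of 24 histone genes tested, 3 were higher and 6 lower, namely *H2bc4*, *H1f2*, *H1f3*, *H2bc9*, *H4c8* and *H4c11*. *H2bc4* stood at 59.8 and 82.7 CPM in cluster 5 against 388 and 454 in cluster 9 (log2 difference -2.57), and at 228 and 342 in cluster 11. *H1f2*, a linker histone gene, stood at 76.8 and 97.0 against 200.5 and 250.4 CPM. *H2ax*, the variant phosphorylated at DNA breaks, went the other way, at 511 and 538 against 105.1 and 110.9 CPM. *Ung*, a uracil DNA glycosylase gene active in S phase, stood at 1.77 and 1.72 against 5.80 and 7.33 CPM. Because the assay primes on poly(A), levels of replication-dependent histones, whose main transcripts lack it, cover only their polyadenylated forms.

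Against cluster 3, whose 339 cells were all called S, 353 genes were higher (2.89%) and 375 lower (3.07%). Of the mitotic lists, 25 of 25 spindle genes, 13 of 13 cytokinesis genes, 17 of 19 kinases and cyclins, 19 of 23 kinetochore genes, 8 of 9 chromosomal passengers, 11 of 18 chromosome structure genes and 5 of 16 of the anaphase-promoting complex list were higher and none lower. *Hmmr*, a spindle assembly protein gene, stood at 200.5 and 203.4 CPM against 2.03 and 3.69. *Pif1*, a helicase gene, stood at 62.2 and 54.9 against 0.156 and 0.352 CPM, which is 1 and 2 UMIs. None of the 41 replication genes was higher and 27 were lower, among them *Mcm4*, a subunit of the replicative helicase, at 17.8 and 20.3 against 219 and 212 CPM. *Cdt1*, a replication licensing factor gene, stood at 3.05 and 5.02 against 166.2 and 165.4 CPM.

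Cluster 6 was the nearest to cluster 5 among mitotic genes. Of its 270 cells 142 were called G2M and 128 S, and against it 115 genes were higher (0.941%) and 338 lower (2.77%). *Top2a* (670 and 673 CPM in cluster 6) and *Aurkb* (223 and 221) differed from cluster 5 by -0.02 and -0.05 on the log2 scale. Other mitotic genes differed more, and *Cdc20* stood at 81.5 and 104 CPM in cluster 6, *Ccnb1* at 74.7 and 90.1, *Plk1* at 111 and 142 and *Cenpa* at 127 and 147. By list, 8 of 19 kinases and cyclins were higher in cluster 5 and 1 lower, 5 of 25 spindle genes, 2 of 23 kinetochore genes, 2 of 16 of the anaphase-promoting complex list and 1 of 13 cytokinesis genes (*Pif1*, at 5.14 and 9.09 CPM in cluster 6) were higher and none lower, and of the chromosome structure genes none of 18 was higher and 2 were lower. None of the 9 chromosomal passengers and cohesin protectors was called.

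Among the gene lists, DNA replication held the most of the 338 genes lower in cluster 5 than in cluster 6. No replication gene was higher in cluster 5 and 36 of 41 were lower, with a median log2 difference of -1.94, against 0.01 over all tested genes. *Mcm5*, of the same helicase, stood at 50.4 and 50.5 CPM against 243 and 230, and *Pcna*, the sliding clamp, at 87.9 and 111 against 660 and 628. Of the same 16 cell cycle transcription factors 7 were lower and none higher. *E2f1* stood at 2.73 and 2.57 against 39.8 and 46.1 CPM, and the repressor gene *E2f8* at 34.9 and 36.1 against 155 and 146. *Ccne1*, the cyclin of S phase entry, stood at 0.964 and 2.696 against 67.2 and 65.99 CPM.

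Against cluster 11, of whose 179 cells 153 were called G1, 590 genes were higher (4.83%) and 2.04% of the tested genes lower. All tested spindle and cytokinesis genes were higher, as were 22 of 23 kinetochore genes, 18 of 19 kinases and cyclins and 21 of 41 replication genes. *Aspm*, a spindle pole protein gene, stood at 124 and 116 CPM against 0.00 and 1.03. The largest differences in the other direction were in *Cym*, *Krt20*, *Onecut2*, *S100g* and *Muc4*, which had 0 to 4 UMIs in each pool of cluster 5. *Cym*, the gene of the milk-clotting protease chymosin, stood at 38.3 CPM in pool K and 496 in pool T of cluster 11, so most of its UMIs there came from pool T. A few cells carried these UMIs, as 9 of the 179 cells of cluster 11 had a UMI of *Cym* and 5 one of *Krt20*.

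Cluster 5 carried lineage genes beside the mitotic ones. *Muc5ac*, the pit cell mucin gene, stood at 2053 and 1787 CPM, and *Muc6*, that of neck cells, at 180 and 154. A cell was counted as carrying either where it exceeded the 95th percentile of the parietal cells (0.819 and 0.672 per 10000 UMIs), taken as the background of free RNA. By this count 133 cells of cluster 5 carried *Muc5ac* alone, 93 *Muc6* alone, 36 both (12.9%) and 17 neither. The shares with *Muc5ac* were 60.6% in cluster 5, 58.9% in cluster 6 and 76.6% in cluster 9, and those with *Muc6* were 46.2%, 50.4% and 39.5%. In cluster 3 *Muc6* reached 385 and 454 CPM, and cluster 5 was lower by 1.33 on the log2 scale.

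Markers of cell types outside the gland epithelium, and of tuft and endocrine cells, were near 0 in cluster 5. The summed lists of parietal and chief cells were not. The summed markers of immune cells reached 0.04 and 0.01 per 10000 UMIs in pools K and T, those of stromal cells 0.01 and 0.00, of endothelial cells 0.01 and 0.02, of tuft cells 0.29 and 0.24 and of endocrine cells 0.45 and 0.45. The parietal list reached 49.5 and 50.9 per 10000, against 450 and 427 in the parietal clusters and 68.2 and 58.2 in cluster 9. In the median cell of cluster 5 the list stood at 46.2 and 46.9 per 10000. *Atp4a* and *Atp4b* together stood at only 1.46 and 1.02 there, against 391 and 369 in the median cell of the parietal clusters. Most of the list sum in cluster 5 therefore came from other genes. The chief cell list reached 352 and 331 per 10000 in cluster 5, 346 and 340 in cluster 9 and 71.8 and 68.8 in the parietal clusters. *Esrrg*, a nuclear receptor gene, was the 1 member of the parietal list called higher than in cluster 9, at 93.2 and 89.8 CPM against 29.98 and 38.78. *Kcne2*, a potassium channel subunit of parietal cells, stood at 41.3 and 27.7 CPM in cluster 5 against 24.8 and 7.09 in cluster 9. It was called higher than in cluster 6 (log2 difference 2.92), with 257 and 226 UMIs in pools K and T against 20 and 34. In cluster 5, 190 of its 483 UMIs came from 9 cells rich in the proton pump genes *Atp4a* and *Atp4b*. Without isthmus cells of that kind, 348 genes were higher than in cluster 9 and 56 lower.

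The pools were compared with plates as samples. Plates of a pool share mice and operator, so these tests describe 2 pools and cannot be read as tests over mice. Cluster 5 made up 6.22 ± 1.83% of the kept cells per plate in pool K (SD, n = 6 plates, from 3.41 to 8.81%) and 7.70 ± 2.29% in pool T (n = 6, from 4.27 to 10.1%). The ranges overlapped, and an exact two-sided permutation test gave p = 0.238, adjusted p = 0.417. Median UMIs, detected genes and mitochondrial percent per plate gave adjusted p-values of 0.848, 0.981 and 0.981 in the same exact test.

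**Figure D4:**
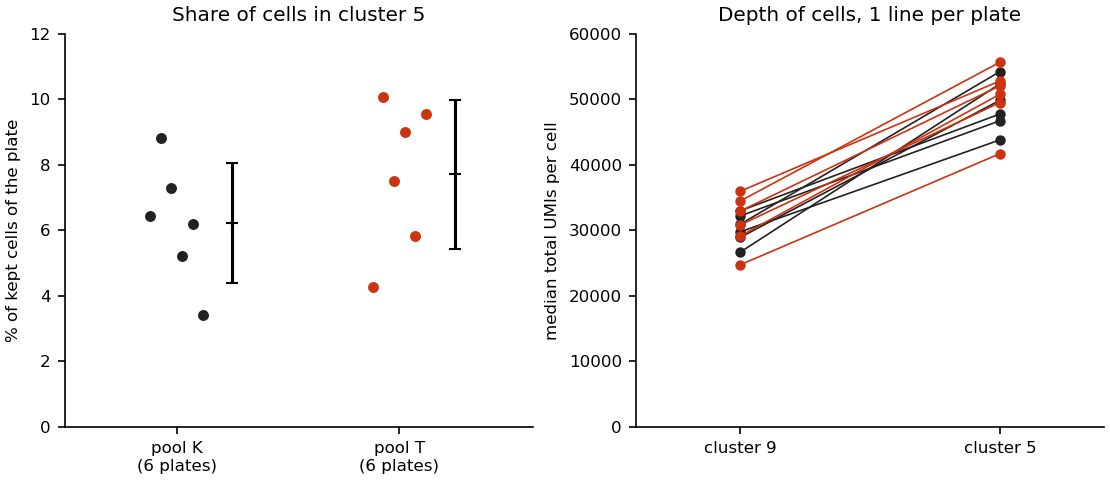
Left, cluster 5 as a percent of the kept cells on each plate of pools K and T, with the mean ± SD of 6 plates; right, the median UMIs per cell of cluster 9 and cluster 5 on the same plate. The pools overlap in share (3.41 to 8.81% and 4.27 to 10.1%), and the line rises from cluster 9 to cluster 5 on all 12 plates.

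The genes that differed between the pools included stress genes and none of the mitotic lists. With edgeR's quasi-likelihood test on plate sums of cluster 5 and Benjamini-Hochberg adjustment, 10 of 9143 genes were higher in K (0.109%) and 42 lower (0.459%) at an adjusted p under 0.05, and 850 had an unadjusted p under 0.05. No gene of the 7 mitotic lists passed in either direction. Of the 14 immediate early and heat shock genes 8 were lower in K and none higher, with a median log2 difference of -0.86, against 0.00 over all genes tested. Cluster 9 showed this too, with 10 of the 14 lower in K, none higher and a median log2 difference of -1.04. *Rhob*, a small GTPase gene induced by stress, ran from 72.6 to 153 CPM on the plates of K (median 114) and from 231 to 305 on those of T (median 292), without overlap (log2 difference -1.36, SE 0.12). *Hspa1a*, an inducible heat shock chaperone gene, ran from 294 to 484 in K and from 704 to 1347 in T (-1.28, SE 0.14), and *Jun*, an immediate early transcription factor gene, from 258 to 544 and from 565 to 957. *Tfrc*, the transferrin receptor gene, ran from 413 to 605 CPM in K and from 646 to 849 in T, and *Erdr1* from 0.00 to 6.77 and from 12.97 to 28.2.

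Fewer genes were higher in pool K. *Scd2*, a fatty acid desaturase gene, ran from 299 to 556 CPM in K and from 189 to 259 in T, and *Zfp871* from 79.3 to 92.4 and from 46.7 to 66.5. *Gm38197*, *ENSMUSG00000095041* and *Ddx17*, an RNA helicase gene, were the others with the lowest p, and for *Ddx17* the plates overlapped, with 129.6 to 194.2 CPM in K and 111.3 to 130.1 in T. The count of 10 genes rested on single plates, as it was 5 without plate PID00167 of K or PID00163 of T and 6 without PID00165 of T. In cluster 9 of the same plates 3 of 7680 genes were higher in K (0.0391%) and 33 lower (0.430%). A test of the difference between the pool effects of the clusters called 0 of 8818 genes with edgeR, 350 at an unadjusted p under 0.05, and 0 of 8816 with DESeq2.

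Dataset 1 allowed the G2/M genes of cluster 5 to be read in other mice. Its dividing cluster, numbered 4-15, had 53 cells, of which the authors' phase call put 16 in G2M and 6 in S in tube 1, and 18 and 13 in tube 2. The sums of these cells were tested by edgeR's quasi-likelihood method, with Benjamini-Hochberg adjustment over 8641 genes. The phase call rests on the expression of gene lists in these cells, so list genes, and genes that vary with them, differ in part by construction, and the tubes number only 2. At an adjusted p under 0.05, 120 genes were higher in G2M cells (1.39%) and 111 lower (1.28%), and 1227 had an unadjusted p under 0.05. With the tube as a block, since the cells of a tube come from the same mice, 2.16% were higher and 2.26% lower. Leaving out 1 of the 4 sums gave 1.90 to 2.61% higher and 1.30 to 2.28% lower, and 2.61% and 2.28% without the 6 S cells of tube 1.

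*Cenpa* rose from 16.4 and 22.1 CPM in the S cells of tubes 1 and 2 to 401 and 368 in the G2M cells (log2 difference 4.24, SE 0.23). *Ube2c* rose from 104.9 and 139.1 to 1026 and 1016 CPM, *Cdc20* from 19.7 and 17.4 to 293 and 230, *Ccnb1* from 16.4 and 17.4 to 248 and 194, and *Ccnb2* from 32.8 and 23.7 to 341 and 250. *Cdt1*, *Cdc6*, *Mcm4*, *Tcf19* and *Uhrf1* fell, *Cdt1* from 180 and 161 to 6.01 and 14.6 CPM. *Iqgap3* rose from 36.1 and 28.5 to 120 and 137 CPM (adjusted p = 0.000976 by edgeR) and *Mki67* from 104.9 and 183.4 to 369 and 427 (adjusted p = 0.0056 by edgeR). *Mki67*, *Cenpa*, *Ube2c*, *Cdc20* and *Ccnb2* are in the G2M phase list, so their rise is in part fixed by the phase call. *Iqgap3* and *Ccnb1* are not in it, but genes that vary with the list genes also differ in part by construction. *Foxm1*, at 29.5 and 39.5 CPM in S and 71.1 and 62.3 in G2M cells, did not pass (edgeR adjusted p = 0.134).

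Genes outside the phase lists moved in the same direction as between clusters 5 and 3. Those that vary with list genes do so in part by construction. Of 201 such genes higher in cluster 5 than in cluster 3, 61 rose in the G2M cells of dataset 1, none fell and 193 had a log2 difference above 0. Of the genes that were lower, 57 fell, none rose, 157 had a log2 difference below 0 and 2 above. Among the 8132 genes called in neither direction, 16 rose, 28 fell and 4033 had a log2 difference above 0. The counts by function include genes of the phase lists, which differ in part by construction. Of the 41 replication genes, 22 are in those lists. By function, 17 of 24 spindle genes, 14 of 18 kinases and cyclins, 9 of 13 cytokinesis genes and 9 of 23 kinetochore genes rose and none fell. Of the replication genes 26 of 41 fell and none rose.

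**Figure D5:**
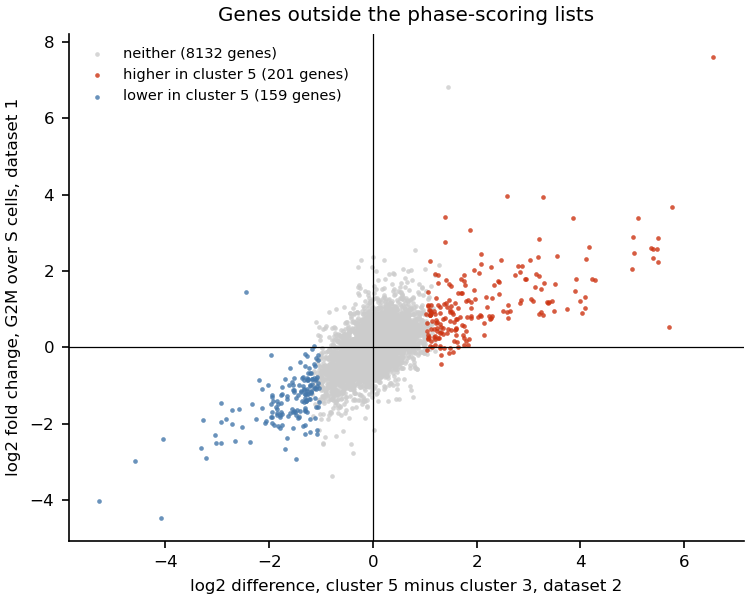
Log2 difference between clusters 5 and 3 of dataset 2 against the log2 difference between G2M and S cells of the dividing cluster of dataset 1, 1 point per gene outside the phase lists. Of the 201 genes higher in cluster 5, 193 lie above 0 on the dataset 1 axis, and 157 of the lower ones lie below it.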

How the data were processed

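Dataset 2 had 12 plates in 2 pools, and dataset 1 had 6 plates in 2 tubes. The authors made the deposited values from the reads with bcl2fastq 2.20.0.422, STAR (GRCm39), Drop-seq tools and FASTX-Toolkit, per their methods and processing notes, as raw UMI counts per gene and well. In the deposited annotation the authors give cluster, phase and pool of each kept cell, the percent of UMIs on mitochondrial genes, and S and G2M scores made with Seurat. Wells with fewer than 2500 detected genes had been removed by the authors. Sorted singlets were used, and no doublet caller was run. Tables holding all kept cells together were not used; the 4484 columns match cells taken from the plate tables.

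Members, lists and named genes were chosen with earlier results of these data known. UMIs were summed per cluster and pool, TMM-scaled, and filtered with filterByExpr in edgeR 4.0.16 (R 4.3.3). Named between clusters were the 12 (cluster 9) or 5 genes with the largest mean log2 difference in either direction with 10 or more UMIs per pool in the higher cluster, for the tests the 5 of lowest p in either direction, and list members; 1 gene so picked is not reported here. Pools (plate sums, n = 6 against 6) and phases of dataset 1 (tube sums) were tested with glmQLFTest, with Benjamini-Hochberg adjustment and a threshold of 0.05. The scripts were tested on simulated data. Plates of a pool and sums of a tube are not separate mice, so p-values measure the spread between them. Promoters (RefSeq, GRCm38.p6) were matched by symbol. Marker positions are from the GRCm39 annotation. Alternatives were DESeq2 1.42.0 and its size factors, filters, prior counts, thinning of cells, and leaving out plates, pools or cells. No plate number occurs in both pools, so these were not paired. The cells of both phases in a tube come from the same mice, and their deviations from the phase means correlated at 0.103.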

Additional observations from a re-analysis of the deposited data

Results flagged for a closer look

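In pool T the CPM of *Rhob* in cluster 5 had a plate that stood apart. Plate PID00165 gave 231 CPM, while the next plate gave 280 and the highest 305, so that its gap to the nearest plate was 0.658 of the whole range. The value still lay above the highest plate of pool K, at 153 CPM. Of 28 groups of 6 plates checked in this way, 1 stood apart, and chance marks about 1 in 20.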

How the results depend on the processing

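Cluster differences have 2 pools and no test, and depth limits the low-count genes. Other size factors, prior counts, G2M cells only and leaving out the deepest cells kept all 8 gene counts within 1.5 times. Against cluster 9, 93 genes were lower without a filter and 24 with thinned cells, and 237 were lower than in cluster 3 with thinned cells. With a 1.5-fold mark 796 genes were higher and 214 lower than in cluster 9, 740 and 1015 against cluster 3, 419 and 767 against cluster 6, and 1059 and 874 against cluster 11. Pool K alone gave 683 higher and 215 lower against cluster 9, 639 lower against cluster 3, 306 and 519 against cluster 6, and 956 and 713 against cluster 11. Pool T alone gave 613 and 207, 649 lower, 213 and 518, and 561 lower than cluster 11. Fewer pools must meet the mark there.

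Leaving out 1 plate gave 327 to 360 higher and 51 to 64 lower against cluster 9, 340 to 354 and 346 to 385 against cluster 3, 106 to 118 and 297 to 331 against cluster 6, and 573 to 591 and 220 to 269 against cluster 11. Of the 344 genes higher than in cluster 9, 221 remained with thinned cells and 295 with G2M cells only.

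Between pools, 31 genes were higher and 144 lower without a filter. Leaving out a plate gave 5 to 15 higher (5 without plate PID00167 of K or PID00163 of T, 6 without PID00165 of T) and 32 to 55 lower, and *Ddx17* no longer passed without PID00167, PID00162 or PID00163. The K minus T difference in detected genes, 3.83 with medians, was -8.00 with means (adjusted p = 0.948, exact permutation test). In dataset 1, 120 genes were higher (1.39% of those tested) and 111 lower (1.28%). The tube as a replicate block gave 187 (2.16%) and 195 (2.26%), DESeq2 63 (1.09%) and 45 (0.777%), and no filter 106 (0.603%) and 72 (0.409%). Leaving out 1 sum gave 1.90 to 2.61% higher, at most 249 genes, and 113 to 218 lower (1.30 to 2.28%), the lone sum of an arm being assumed to vary like the other. The plate as a block left the test of the difference between pool effects at 0 genes (357 at an unadjusted p under 0.05, edgeR). The cause of these changes was not tested. Leaving out cells rich in *Atp4a* and *Atp4b* was chosen after seeing the data.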
